A study of Mus musculus with 16 samples.

Results

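Oxidative phosphorylation subunits were followed in RNA sequencing (RNA-seq) data from mouse pancreatic islets exposed to the cytokine IL-1β, to the short chain fatty acid butyrate, or to both. Members were the protein-coding genes of the count table whose symbol starts with Nduf (complex I), Uqcr (complex III), Atp5 (complex V), Cox4 to Cox8 (complex IV) or mt- (the mitochondrial genome), together with Sdha, Sdhb, Sdhc and Sdhd (complex II). This gave 106 of the 52636 genes in the table, 93 of them encoded in the nucleus and 13 in the mitochondrial genome. A further 37 matching entries that are tRNA, rRNA, pseudogene or long non-coding RNA genes were left out. A total of 96 members were abundant enough to be tested, among 18587 genes tested in all. The rule uses gene names and no measured value. It also takes in 8 assembly factors of complex I, 1 regulatory factor and 1 supercomplex factor, which are counted with their complexes. Ndufa4 and Ndufa4l2, although named Nduf, are counted with complex IV.

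Islets came from male C57BL/6JRj mice aged 12 weeks (the study's methods give the strain as C57BL/6NRj), and 500 islets pooled from several mice made up each sample. The samples were cultured for 10 days without any addition (control), or in medium holding IL-1β at 50 pg/ml, butyrate at 0.2 mM, or both at these concentrations. Each of the 4 conditions had 4 libraries, numbered 1 to 4 as replicates, and each library held between 18635943 and 25955943 counted reads. Because every library is a pool of mice cultured outside the body, p-values describe the spread between these pooled cultures, and no value belongs to one animal. Islets hold several cell types, and in bulk RNA a smaller number of cells of a type and less RNA per cell cannot be told apart.

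Oxidative phosphorylation is the route by which mitochondria turn the oxidation of nutrients into ATP. Complexes I and II feed electrons from NADH and succinate into the chain, complexes III and IV pass them on to oxygen while protons are pumped across the inner membrane, and complex V, the ATP synthase, uses the returning protons to make ATP. In beta cells the ATP made from glucose closes potassium channels and so triggers insulin secretion. Complexes I, III, IV and V are built from subunits of both genomes, and several subunits of complex IV exist as paired isoforms, one found in most tissues and one found mainly in muscle, lung or testis.

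The largest change among all members was in one such isoform. Cox6a2, the heart and skeletal muscle form of subunit VIa of cytochrome c oxidase, stood at 0.196 times the control mean with IL-1β and at 1.85 times with butyrate alone. Apart from Cox6a2 and Cox7a1, the largest change in size of any member that passed the test was 0.51 on the log2 scale. Without pairing of the samples, 68 of the 96 tested members passed the test in none of the 4 comparisons of condition. Butyrate lowered 10 members (10.4%) and raised 4 (4.17%) without IL-1β, beside 11.4% and 8.53% of all genes. With IL-1β it lowered 11 (11.5%) and raised 2 (2.08%), beside 11.1% and 8.41% of all genes. Upper-quartile scaling did not keep this balance (5 lowered and 5 raised without, 2 lowered and 3 raised with IL-1β). In the fit without pairing, the members lowered by butyrate fell by 0.18 to 0.34 on the log2 scale. The replicate number as a block was taken to pair the samples. Butyrate then lowered 16 members and raised 6 (14.9% and 11.3% of all genes). With IL-1β present it lowered 26 and raised 2 (15.4% and 11.4% of all genes). IL-1β raised 16 and lowered 2 (13.9% and 10.5% of all genes), so fewer than 68 members stayed without a call. A change here means an adjusted p (Benjamini-Hochberg over all tested genes) under 0.01 in edgeR's quasi-likelihood test. Levels of one gene are in CPM, counts scaled to a common library total after TMM adjustment, and levels compared between genes are CPM per kilobase of exon.

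Cox6a2 (ENSMUSG00000030785, chr7:128205435-128206387, minus strand, GRCm38) was followed beside its widely expressed partner Cox6a1. The ends of both coding sequences, the last 240 bases with the stop codon, are shown because reads of one could in principle be assigned to the other. The whole coding sequences come from the GENCODE release 21 annotation of GRCm38, each from 3 exons, on the minus strand of chr5:115345843-115348950 for Cox6a1 (339 bases in all) and of chr7:128205729-128206295 for Cox6a2 (294 bases). Capitals mark bases that differ from, or have no counterpart in, the other gene.
Cox6a1: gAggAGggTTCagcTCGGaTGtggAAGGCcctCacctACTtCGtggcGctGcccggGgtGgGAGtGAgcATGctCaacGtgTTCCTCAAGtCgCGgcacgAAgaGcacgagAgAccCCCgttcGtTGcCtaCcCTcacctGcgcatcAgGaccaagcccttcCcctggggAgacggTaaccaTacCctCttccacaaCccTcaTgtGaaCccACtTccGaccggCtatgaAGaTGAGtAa
Cox6a2: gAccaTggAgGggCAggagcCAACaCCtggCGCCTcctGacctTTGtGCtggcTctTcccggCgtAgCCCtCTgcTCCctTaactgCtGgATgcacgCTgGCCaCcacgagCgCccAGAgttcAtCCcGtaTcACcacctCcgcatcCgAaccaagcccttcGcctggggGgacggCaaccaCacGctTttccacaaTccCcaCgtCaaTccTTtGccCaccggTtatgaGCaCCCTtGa
Over the whole coding sequences the global alignment paired 290 bases, of which 193 (66.6%) were identical, and the coding sequences shared 0 stretches of 20 bases. Lower-case runs are therefore short and spread along the sequence. Over its whole exons, 3.33% of the 50-base stretches of Cox6a2 occurred in another gene, Itgad.

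In the control libraries Cox6a2 was at 17.3, 24.1, 27.2 and 26.3 CPM. With IL-1β it was at 4.08, 5.26, 5.23 and 4.15 CPM, and with butyrate alone at 38.5, 46.6, 44.2 and 46.2 CPM. All IL-1β libraries lay below all control libraries, and all butyrate libraries lay above them. The fall with IL-1β was −2.35 on the log2 scale (SE 0.19, adjusted p = 2.12e-07), which ranked 6 from the lowest of 18587 tested genes. Butyrate alone raised Cox6a2 by 0.89 (SE 0.14, adjusted p = 0.000284). Both calls held under all 24 alternatives tried.

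With IL-1β and butyrate together, Cox6a2 was at 8.0, 8.49, 8.67 and 4.77 CPM. The first 3 of these libraries lay above every IL-1β library, and replicate 4 lay within the IL-1β range. Against IL-1β alone the difference was 0.69 (SE 0.21, adjusted p = 0.0235), which did not pass the threshold of 0.01. It did pass without replicate 4 of IL-1β plus butyrate (0.83, adjusted p = 0.00143), without control replicate 1 (adjusted p = 0.00331), with DESeq2 (adjusted p = 0.00357) and with the 2 conditions fitted alone (adjusted p = 0.00598). Cox6a2 did not pass in the fit that pairs samples by replicate number, where the 2 raised members were Ndufv3 and Atp5a1. Nor did it pass without IL-1β replicate 1, 3 or 4, where Ndufv3 was the 1 raised member. The same held without replicate 2 or 3 of IL-1β plus butyrate. Against control, the level with both agents was lower by −1.66 on the log2 scale (SE 0.17, adjusted p = 1.91e-06). The effect of butyrate with IL-1β minus that without was −0.19 (SE 0.26, adjusted p = 0.964), so no difference between the butyrate effects was detected.

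Cox6a1 passed the test in no comparison. It was at 104 to 114 CPM in control, 103 to 132 with IL-1β, 99.8 to 112 with IL-1β plus butyrate and 103 to 113 with butyrate. Per exon length, Cox6a2 made up 18.5% ± 2.91 (SD, n = 4) of the pair in control, 4.16% ± 0.557 with IL-1β, 6.78% ± 1.5 with both agents and 29.4% ± 2.12 with butyrate.

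**Figure D1:**
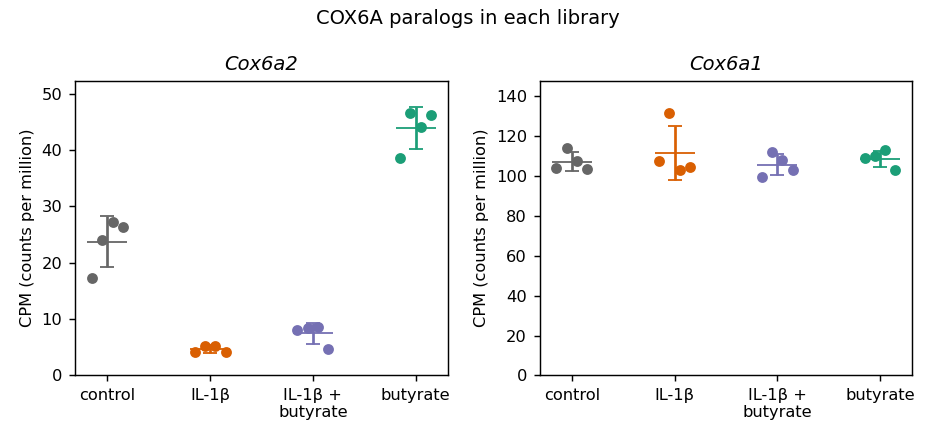
CPM of Cox6a2 (left) and Cox6a1 (right) in each of the 16 libraries by condition, on linear axes from 0, with points for libraries and bars for the mean and SD (n = 4). Cox6a2 falls from 17.3–27.2 CPM in control to 4.08–5.26 with IL-1β and rises to 38.5–46.6 with butyrate, while Cox6a1 stays between 99.8 and 132 CPM.

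The neighboring gene Itgad, an integrin subunit of leukocytes, lies on the other strand and overlaps 10.3% of the Cox6a2 exons, and the strand setting of the counting is not given in the sources used here. Itgad had 28 to 31 counts per control library, 1 to 6 with IL-1β, 4 to 15 with both agents and 54 to 74 with butyrate. Its log2 fold change was −2.89 (adjusted p = 1.88e-07) with IL-1β and 1.18 (adjusted p = 0.000107) with butyrate, so it moved in the same directions as Cox6a2, at counts lower than the 79 to 1073 of Cox6a2. How the reads of the overlap were divided was not tested. Beta cell markers also moved with IL-1β: 7 of 8 fell and Iapp rose, and their summed level was 136869 to 178429 CPM against 213491 to 236289 in control. With butyrate the sum was 221674 to 261225 CPM, and 2 of the 8 rose and 1 fell. The part of cell makeup in the Cox6a2 values was not tested.

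The other tissue-specific isoforms were near the detection limit. Cox7a1, the muscle form of subunit VIIa, was counted 8 to 32 times per library. It was at 0.382 to 0.560 CPM in control, 0.726 to 1.41 with IL-1β, 0.722 to 1.36 with both agents and 0.645 to 1.05 with butyrate, so the 3 exposed conditions lay above control without overlap. Cox7a1 rose with IL-1β by 1.08 (SE 0.29, adjusted p = 0.0059) and with both agents by 1.18 (SE 0.28, adjusted p = 0.00133), while butyrate alone gave 0.84 (SE 0.30, adjusted p = 0.0341). The IL-1β call was lost in 6 of 24 alternatives. Cox6b2, the testis form of subunit VIb, was counted 15 to 44 times and Ndufa4l2, the paralog of the complex IV subunit Ndufa4, 4 to 19 times, and neither passed the test in any comparison. Cox4i2 (0 to 5 counts), Cox7b2 (0 to 4), Cox8c (0 to 2) and Cox8b (0 to 1) were too low to be tested. The widely expressed partners Cox6b1, Cox7a2, Cox7b and Cox8a passed the test in no comparison. With the block, however, Cox6b1 was raised by IL-1β (0.22, adjusted p = 0.000266) and lowered when butyrate was added to IL-1β (−0.17, adjusted p = 0.00468). A count of 3 corresponds to at most 0.157 CPM in these libraries.

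Among widely expressed subunits the highest level per kilobase in complex I was that of Ndufa1, an X-linked accessory subunit of the membrane arm, at 229 CPM per kb over all libraries. The others were Sdhd, a membrane anchor of complex II, at 73.2, Uqcr10 of complex III at 67.7, Cox8a of complex IV at 173 and Atp5a1, the alpha subunit of the ATP synthase head, at 197 CPM per kb. The lowest tested members were Ndufb4 at 1.43, Sdhc at 26.1, Uqcrc1 at 20.6, Ndufa4l2 at 0.395 and Atp5l at 1.60 CPM per kb. Lengths count every annotated exon base of a gene, so genes with long rarely used exons read low on this scale. Mitochondrially encoded members were higher, between 964 CPM per kb for mt-Nd4 and 4029 for mt-Co1. Over all counts, nuclear members took 0.567% ± 0.0157 (SD, n = 4) in control, 0.610% ± 0.0322 with IL-1β, 0.592% ± 0.0124 with both agents and 0.542% ± 0.00909 with butyrate. With IL-1β, replicate 2 held 0.658% and replicates 1, 3 and 4 held 0.592% to 0.597%. These are shares of raw totals, which include the abundant beta cell markers that fell with IL-1β, and the part of those markers was not tested.

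Of the 13 genes of the mitochondrial genome, 7 could be followed. The other 6 (mt-Co2, mt-Co3, mt-Atp6, mt-Atp8, mt-Nd3 and mt-Nd4l) had 0 or 1 counts in every library, beside 113561 to 167977 counts for mt-Co1. All but mt-Atp8 of those 6 shared at least 98.0% of their 50-base stretches with another annotated gene, and mt-Atp8 shared 0%. Of the genes that were counted, mt-Nd4 shared 62.2%, mt-Co1 51.1%, mt-Nd2 8.19% and mt-Nd5 7.61%, and mt-Nd1, mt-Nd6 and mt-Cytb shared 0%. The nuclear copies took few reads themselves: Gm28438 had 72 to 164 counts, Gm10222 6 to 20, Gm29216 1 to 8 and Gm28437 0 to 5. How reads that match both a mitochondrial gene and a nuclear copy were counted is not given in the sources used here, so the levels of mt-Co1 and mt-Nd4 are uncertain, and complex V has no mitochondrially encoded subunit that was measured here.

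**Figure D2:**
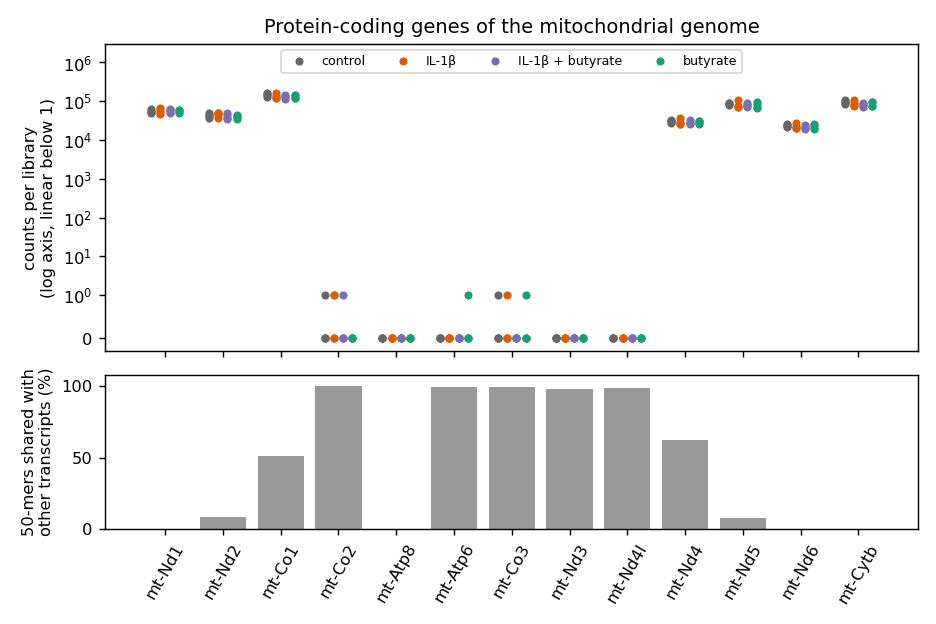
Raw counts of the 13 protein-coding mitochondrial genes in each of the 16 libraries (upper panel, symmetric log axis, 1 point per library) and the percentage of each gene's 50-base stretches that occur in another annotated gene (lower panel, bars from 0). The 6 genes with 0 or 1 counts stand apart from the other 7, and 5 of those 6 share at least 98.0% of their sequence.

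Before the comparisons, 1 feature of the libraries has to be given. Replicate 2 had higher member levels than the other 3 libraries of its condition in control (median difference 0.09 on the log2 scale, 84 of 96 members higher), with IL-1β (0.20, 91 of 96) and with both agents (0.09, 84 of 96), but not with butyrate (−0.00, 47 of 96). Replicate 4 was lower with IL-1β (−0.14, 7 of 96 members higher) and with butyrate (−0.09, 14 of 96). Replicate 3 of butyrate was higher (0.07, 77 of 96), and replicate 1 of IL-1β plus butyrate was lower (−0.07, 14 of 96). For all tested genes the same medians lay between −0.01 and 0.01. Beta cell markers were the most abundant of the cell type lists, and macrophage markers rose with IL-1β in 6 of 6, from a sum of 15.5–24.9 to 65.6–112 CPM. Acinar markers summed to 0.334–3.01 CPM in control and 2.53–12.8 CPM with IL-1β, and 1 of 3 tested rose. Of the other lists, IL-1β raised 2 of 4 duct and 1 of 4 tested endothelial markers and lowered 2 of 5 alpha and 1 of 5 fibroblast markers, and butyrate lowered 2 of 5 alpha markers and raised 1 of 3 delta markers. Markers of PP cells, T cells, B cells and Schwann cells passed the test in neither of these comparisons. The part of these markers in the values of the members was not tested.

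**Figure D3:**
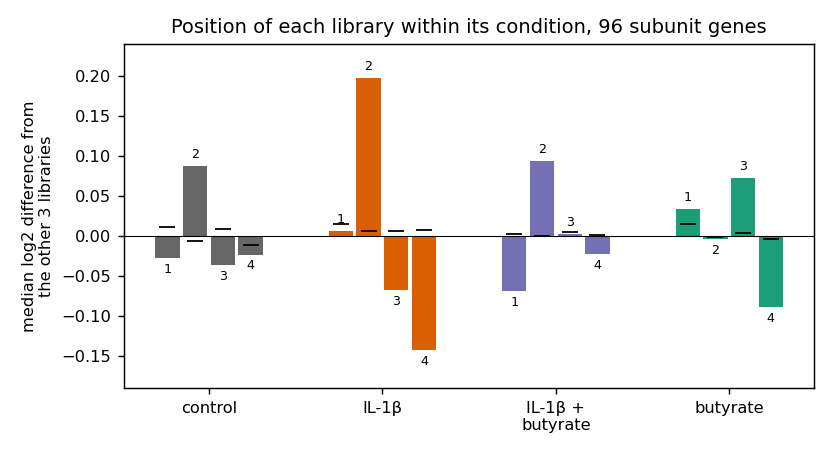
Median log2 difference of each library from the other 3 of its condition, for the 96 tested members (bars) and for all 18587 tested genes (black dashes). Replicate 2 of IL-1β stands highest at 0.20 and replicate 4 of IL-1β lowest at −0.14, while the dashes stay near 0.

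The comparison of IL-1β with control asks what long exposure to a low dose of the cytokine does. IL-1β raised 5 members and lowered 1, which is 5.21% and 1.04% of those tested, beside 11.2% raised and 6.59% lowered over all genes. The raised genes were Ndufa1, Ndufa13 (complex I), Uqcrc2 (complex III), Ndufa4 and Cox7a1 (complex IV), and Cox6a2 was the lowered one. No member of complex II or V passed the test, although Atp5mpl of complex V did with the replicate number as a block (0.27, adjusted p = 0.00037). The median log2 fold change over members was 0.05, against −0.03 over all genes, and it turned to −0.01 without IL-1β replicate 2. Libraries of IL-1β lay above all control libraries in 6 members and below in 1, beside 14.1% and 10.7% of all genes.

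Ndufa1 (chrX:37187588-37191163, minus strand) was at 81.4, 96.9, 81.9 and 87.4 CPM in control and at 111, 155, 113 and 117 CPM with IL-1β. Every IL-1β library was above every control library, and replicate 2 was far above the others. The rise was 0.51 (SE 0.09, adjusted p = 0.000431), and it was called in all alternatives. Uqcrc2, a core-type subunit of complex III, was at 90.2, 95.1, 89.2 and 90.9 CPM in control and 106, 112, 105 and 98.8 CPM with IL-1β, also without overlap. Its rise was 0.20 (SE 0.04, adjusted p = 0.000838) and held in all alternatives, and 19.7% of its exons overlap Pdzd9 on the other strand.

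Ndufa13 and Ndufa4 each rose by 0.23 (SE 0.06 for both, adjusted p = 0.00661 and 0.00806). Both calls were lost without IL-1β replicate 2, and Ndufa4 was lost in 8 and Ndufa13 in 6 of 24 alternatives. Tssk6 on the other strand overlaps 29.98% of the Ndufa13 exons. Cox4i1, the widely expressed form of subunit IV, was at 123 to 143 CPM against 111 to 125 in control (0.18, SE 0.05, adjusted p = 0.0105). By complex, the member median was 0.04 for complex I, 0.03 for complex II, 0.01 for complex III and 0.02 for complex V. All 4 of these turned negative without IL-1β replicate 2, those of complexes II, III and V also with upper-quartile scaling, and that of complex III also without control replicate 3. For complex IV the median was 0.12, and it stayed positive under every scaling and with any library left out.

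The number of raised members in this comparison depended on single libraries and on the fit. It was 2 without control replicate 3, without control replicate 4 or without IL-1β replicate 2, and 8 without IL-1β replicate 4 or without replicate 1 of IL-1β plus butyrate. With the replicate number as a block, taken to pair the samples, it was 16 raised and 2 lowered (13.9% and 10.5% of all genes). The 12 added calls included Cox4i1, Cox6b1, Cox6c, Cox7c and Cox7a2l of complex IV. Library sizes without further scaling gave 22 raised and 1 lowered (2798 and 708 genes in all). Upper-quartile scaling gave 3 raised and 1 lowered (1914 and 1800 in all).

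The comparison of butyrate with control asks what the fatty acid does by itself. Butyrate raised 4 members and lowered 10 (4.17% and 10.4%), beside 8.53% raised and 11.4% lowered over all genes. The lowered genes were Ndufs3, Ndufs7, Ndufa9, Ndufa10 and Ndufb5 of complex I, Uqcrc1 of complex III, Cox4i1 of complex IV, and Atp5f1, Atp5g1 and Atp5o of complex V. The raised genes were Ndufab1, Ndufv3, Sdhc and Cox6a2. The median over members was −0.08, against 0.01 over all genes, and it stayed below 0 under every scaling and with any library left out. That median was −0.03 with upper-quartile scaling, and −0.05 without control replicate 2 or without butyrate replicate 4. By complex it was −0.07 for complex I, −0.09 for complex III, −0.08 for complex IV and −0.10 for complex V, and for the 4 members of complex II 0.01, a sign that turned on library sizes without further scaling and without control replicate 1, control replicate 4 or butyrate replicate 1. Butyrate libraries lay above all control libraries in 6 members and below in 20 (20.8%), beside 13.3% and 16.8% of all genes.

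Ndufs3, Ndufa10 and Atp5g1 were lowered, and Ndufv3 was raised, in each of the comparisons of a butyrate condition with a condition without it. Their promoters are shown for that reason, each as 300 bases read along the gene, from 250 before to 50 after the RefSeq start (GRCm38.p6). Capitals mark the letters CCGGAAG or their reverse complement, the core that ETS factors such as GABPA recognize in many mitochondrial genes.
Ndufs3, chr2:90904672-90904971, minus strand: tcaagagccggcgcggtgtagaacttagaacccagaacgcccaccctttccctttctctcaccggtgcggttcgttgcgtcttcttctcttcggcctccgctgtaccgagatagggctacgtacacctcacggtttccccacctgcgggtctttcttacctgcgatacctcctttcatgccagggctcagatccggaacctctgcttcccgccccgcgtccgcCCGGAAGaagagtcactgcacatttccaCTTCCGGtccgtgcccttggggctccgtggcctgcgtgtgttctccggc
Ndufa10, chr1:92473709-92474008, minus strand: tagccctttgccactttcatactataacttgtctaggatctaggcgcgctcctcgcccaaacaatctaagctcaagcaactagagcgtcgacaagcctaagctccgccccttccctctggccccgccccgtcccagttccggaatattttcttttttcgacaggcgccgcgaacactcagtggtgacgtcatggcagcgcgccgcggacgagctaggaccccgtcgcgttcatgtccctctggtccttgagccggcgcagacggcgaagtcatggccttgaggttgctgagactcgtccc
Atp5g1, chr11:96075582-96075881, minus strand: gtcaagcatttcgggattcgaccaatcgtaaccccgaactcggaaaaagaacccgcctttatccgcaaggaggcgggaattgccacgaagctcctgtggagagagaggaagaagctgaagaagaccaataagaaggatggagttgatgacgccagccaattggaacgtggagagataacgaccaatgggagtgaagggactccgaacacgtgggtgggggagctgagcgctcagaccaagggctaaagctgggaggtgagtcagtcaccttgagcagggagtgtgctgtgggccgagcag
Ndufv3, chr17:31519865-31520164, plus strand: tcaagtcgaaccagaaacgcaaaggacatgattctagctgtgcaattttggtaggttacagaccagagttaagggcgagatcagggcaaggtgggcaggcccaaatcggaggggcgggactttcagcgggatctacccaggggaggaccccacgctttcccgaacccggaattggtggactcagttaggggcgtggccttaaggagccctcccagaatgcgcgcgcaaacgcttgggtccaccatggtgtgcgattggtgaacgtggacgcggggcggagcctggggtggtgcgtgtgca
The Ndufs3 window held the letters once on each strand, and the other windows did not hold them.

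Ndufs3, a core subunit of the matrix arm of complex I, was at 46.6, 52.0, 49.3 and 44.6 CPM in control and at 37.1, 39.5, 40.7 and 38.3 CPM with butyrate. All butyrate libraries were below all control libraries. The fall was −0.31 (SE 0.05, adjusted p = 8.55e-05). The other changed core subunit, Ndufs7, which carries an iron-sulfur cluster, fell from 38.6–43.0 to 33.6–35.9 CPM (−0.24, SE 0.05, adjusted p = 0.00131). With the block, the core subunits Ndufs1 (−0.16, adjusted p = 0.0035) and Ndufv1 (−0.14, adjusted p = 0.00667) were lowered as well. All 7 nuclear core subunits of complex I had log2 fold changes below 0 with butyrate, with a median of −0.16 that kept its sign under every scaling and with any library left out. Up to 17.9% of the 50-base stretches of Ndufs3 occur in another gene.

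Among accessory subunits of complex I, Ndufa10 was at 46.6, 49.1, 48.7 and 49.9 CPM in control and at 41.5, 39.8, 38.7 and 39.4 CPM with butyrate. The ranges were well apart, and the fall was −0.29 (SE 0.05, adjusted p = 2.16e-05). Ndufa9 fell from 44.1–47.0 to 36.1–39.4 CPM (−0.28, adjusted p = 0.000136) and Ndufb5 from 34.3–35.6 to 27.5–30.8 CPM (−0.24, adjusted p = 0.00333). Ndufab1, which also serves as the acyl carrier protein of mitochondrial fatty acid synthesis, went the other way. It was at 19.5, 21.5, 22.4 and 21.8 CPM in control and at 29.7, 28.2, 28.1 and 24.5 CPM with butyrate, a rise of 0.37 (SE 0.06, adjusted p = 5.34e-05) without overlap. Ndufv3, an accessory subunit near the site of NADH oxidation, was at 72.1, 74.5, 74.3 and 71.3 CPM in control and 83.9, 88.4, 90.2 and 86.2 CPM with butyrate (0.26, SE 0.05, adjusted p = 0.000518).

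In complex II, Sdhc, a membrane anchor, rose by 0.18 (SE 0.05, adjusted p = 0.00649), a call lost in 7 of 24 alternatives. In complex III, Uqcrc1, a core-type subunit, fell by 0.21 on the log2 scale (SE 0.05, adjusted p = 0.0029). In complex IV, Cox4i1 was at 113, 125, 111 and 113 CPM in control and at 99.8, 103, 101 and 97.9 CPM with butyrate. All butyrate libraries were lower, and the difference was −0.20 (SE 0.05, adjusted p = 0.00363).

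In complex V, the 3 lowered genes belong to the membrane sector and the stalk. Atp5g1, one of 3 genes for the c subunit of the proton-driven ring, was at 62.9, 65.7, 62.3 and 64.7 CPM in control and 51.3, 48.1, 55.4 and 52.1 CPM with butyrate (−0.31, SE 0.05, adjusted p = 4.86e-05). The butyrate libraries lay well below the control range. Atp5g2 gave −0.16 (adjusted p = 0.12) and Atp5g3 −0.03 (adjusted p = 0.731), and neither passed the test. Per exon length, the share of Atp5g1 in the c subunit transcripts was 16.03% ± 0.240 (SD, n = 4) in control and 13.7% ± 0.545 with butyrate, and Atp5g3 held 74.6% and 77.4%. Atp5f1, the b subunit of the stalk, fell by 0.21 (adjusted p = 0.00474) and Atp5o, which joins the stalk to the head, by 0.28 (adjusted p = 0.00207). Another gene overlaps 35.6% of the Atp5o exons on the other strand, and 41.6% of its 50-base stretches occur elsewhere.

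The count of lowered members was 6 without control replicate 2 and 6 without butyrate replicate 4. With the block it was 6 raised and 16 lowered (11.3% and 14.9% of all genes). Upper-quartile scaling gave 5 raised and 5 lowered (2207 and 1566 genes in all). Of the 14 calls, 8 held in all 24 alternatives: Ndufa10, Ndufs3, Ndufa9, Ndufs7, Atp5g1, Ndufab1, Ndufv3 and Cox6a2.

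The comparison of IL-1β plus butyrate with IL-1β asks what butyrate does in islets that are exposed to the cytokine. Butyrate raised 2 members and lowered 11 (2.08% and 11.5%), beside 8.41% raised and 11.1% lowered over all genes. Complex I held 5 of the lowered genes (Ndufa1, Ndufs3, Ndufa10, Ndufb5 and Ndufb8), complex V 4 (Atp5g1, Atp5f1, Atp5j2 and Atp5s), complex IV 1 (Cox4i1) and complex III 1 (mt-Cytb). Ndufv3 and Atp5a1 were the raised genes. The median over members was −0.11, against 0.01 over all genes, and stayed below 0 under every scaling and with any library left out. Libraries with both agents lay above all IL-1β libraries in 4 members and below in 12 (12.5%), beside 12.3% and 14.5% of all genes. Cell type markers also moved in this comparison: 3 of 6 macrophage markers were lowered, their sum going from 65.6–112 to 29.0–62.7 CPM, 2 of 8 beta markers were lowered, 1 of 5 alpha markers was raised and 2 were lowered, 1 of 3 delta and 1 of 3 Schwann markers were raised and 1 of 4 duct markers was lowered. Their part in the values of the members was not tested.

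With both agents Ndufs3 was at 37.2, 40.6, 41.4 and 40.4 CPM, against 48.7, 52.3, 47.0 and 46.4 CPM with IL-1β alone (−0.28, SE 0.05, adjusted p = 0.00021). Atp5g1 was at 50.8, 51.5, 49.8 and 51.5 CPM against 65.2, 68.2, 57.0 and 60.9 CPM (−0.30, SE 0.05, adjusted p = 5.73e-05). Ndufv3 was at 90.4, 99.8, 93.2 and 94.1 CPM against 77.7, 88.7, 74.4 and 71.9 CPM (0.27, SE 0.05, adjusted p = 0.000237). In none of these genes did the libraries overlap, and these were the only 3 of the 13 calls that held in all 24 alternatives.

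Ndufa1, which IL-1β had raised, was at 91.2, 104, 93.7 and 103 CPM with both agents, below every IL-1β library. The difference was −0.34 (SE 0.09, adjusted p = 0.0095), a call lost in 15 of 24 alternatives, and with butyrate alone it was at 70.8 to 79.3 CPM (−0.23 against control, adjusted p = 0.0823). The other falls were smaller. They were −0.31 for Atp5s (regulatory factor B), −0.26 for Atp5j2 (a small membrane subunit), −0.25 for Ndufb8, −0.22 for Ndufb5, −0.21 for Atp5f1, −0.19 for Ndufa10 and −0.18 for Cox4i1, with adjusted p from 0.00217 to 0.00847. Atp5a1 rose by 0.17 (SE 0.04, adjusted p = 0.00373), from 551–611 to 625–670 CPM.

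The count of lowered members was 4 without IL-1β replicate 2, 4 without replicate 1 of IL-1β plus butyrate, 6 without its replicate 4 and 21 without IL-1β replicate 4. With the block it was 2 raised and 26 lowered (11.4% and 15.4% of all genes). Upper-quartile scaling gave 3 raised and 2 lowered (2137 and 1566 genes in all). The median over members was −0.05 without IL-1β replicate 2.

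The butyrate comparisons with and without IL-1β share no library, and their calls are set beside each other. They are not independent, because same-numbered samples were taken as paired and all conditions share the same estimate of the spread. Lowered in both were 6 members (Ndufa10, Ndufs3, Ndufb5, Cox4i1, Atp5f1 and Atp5g1), which is 6.25% of the 96 tested, beside 7.74% over all genes. They are 60% of the 10 lowered without IL-1β and 54.5% of the 11 lowered with it, where over all genes the same shares were 68.1% and 69.6%. Ndufv3 was the 1 member raised in both (1.04%, beside 5.73% over all genes), which is 25% of the 4 and 50% of the 2 raised, where over all genes the shares were 67.2% and 68.1%. The members called in both were thus no larger a share than among all genes. Over the 96 members the log2 fold changes had a Pearson r of 0.722 and a Spearman rho of 0.709, as a description across genes that share the same libraries. A total of 62 members lay below 0 and 16 above 0 in both. These counts, r and rho were not computed over all genes, so they show no trait particular to the members.

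**Figure D4:**
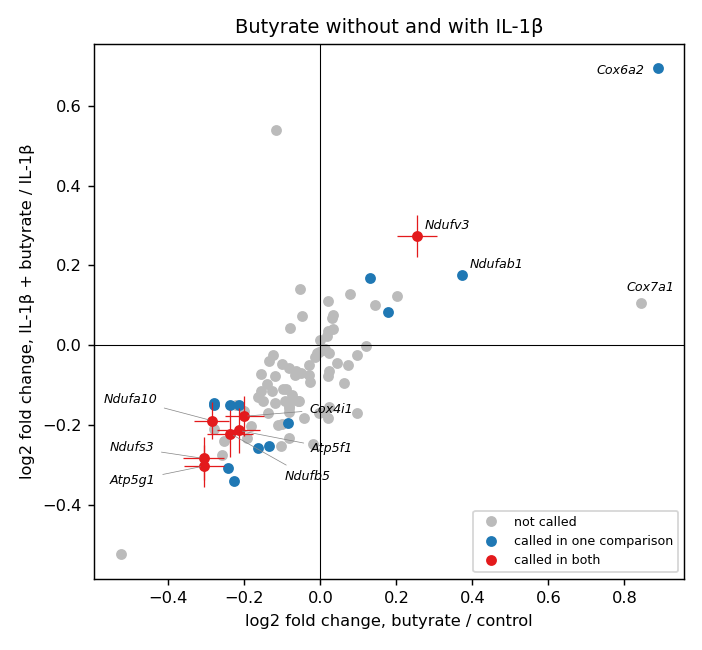
Log2 fold change of each of the 96 tested members with butyrate against control (x axis) and with IL-1β plus butyrate against IL-1β (y axis), with red points and SE bars for the 7 members called in both. Most points lie in the lower left part (62 of 96), the 6 members lowered in both lie together there, and Cox6a2 lies far to the upper right at 0.89 and 0.69.

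The butyrate effect with IL-1β minus that without it passed the test in 0 members in edgeR (0.043% of all genes in the positive and 0.0538% in the negative direction), in 0 with DESeq2 and in 0 with the block (0.323% and 0.387% of all genes). At an unadjusted p under 0.05 there were 3 members in edgeR, 4 with DESeq2 and 9 with the block. All 7 tested mitochondrially encoded members had differences below 0 (median −0.157), and 2 of them were among the 3 in edgeR. The 7 members called in both comparisons were picked for changing in the same direction in both, which favors small differences. Among them Ndufa10 had the largest difference, at 0.10 (SE 0.06, adjusted p = 0.855), its fall being smaller with IL-1β. The other 6 lay between 0.00 for Atp5f1 (SE 0.08) and 0.02 for Ndufs3 (SE 0.08).

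The comparison of IL-1β plus butyrate with control shares its libraries with the comparisons above, so its values are only set beside theirs. It held 5 raised and 8 lowered members (5.21% and 8.33%), beside 15.8% raised and 14.8% lowered over all genes, and the member median was −0.04 (0.03 on library sizes without further scaling). Ndufv3 was higher by 0.37 (SE 0.05, adjusted p = 2.13e-06). Cox7a2l, grouped with complex IV, was at 62.7, 69.4, 71.4 and 68.2 CPM in control and at 74.4, 87.1, 90.5 and 85.9 CPM with both agents (0.31, SE 0.06, adjusted p = 4.56e-05). Its libraries did not overlap, and IL-1β alone (0.19, adjusted p = 0.0141) and butyrate alone (0.08, adjusted p = 0.343) did not pass the test. With the block, Cox7a2l did pass with IL-1β alone (adjusted p = 0.000748). Uqcrh, the hinge protein of complex III, was higher by 0.33 (SE 0.08, adjusted p = 0.0012), with 47.4 to 55.8 CPM in control and 56.5 to 70.6 CPM with both agents. With the block, Uqcrh was also raised by IL-1β alone (0.21, adjusted p = 0.00042) and by butyrate alone (0.20, adjusted p = 0.00065).

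Lowered with both agents were Cox6a2, Atp5g1 (−0.33), Ndufs3 (−0.27), Ndufa10 (−0.24), Atp5s, Ndufaf8, mt-Cytb and mt-Co1. Atp5s was at 12.6, 10.4, 11.4 and 12.1 CPM in control and 8.57, 8.95, 8.89 and 8.43 CPM with both agents (−0.41, SE 0.08, adjusted p = 0.000171), again without overlap. Ndufaf8, an assembly factor of complex I, gave −0.37 (SE 0.10, adjusted p = 0.0028), a call lost in 5 of 24 alternatives. The block gave 7 raised and 13 lowered members (18.8% and 18.3% of all genes). Of the 13 calls, 11 held in all alternatives. Libraries with both agents lay above control in 9 members and below in 16, beside 19.3% and 19.2% of all genes. In the same comparison 3 of 6 macrophage markers were raised, and 7 of 8 beta markers were lowered and 1 was raised.

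**Figure D5:**
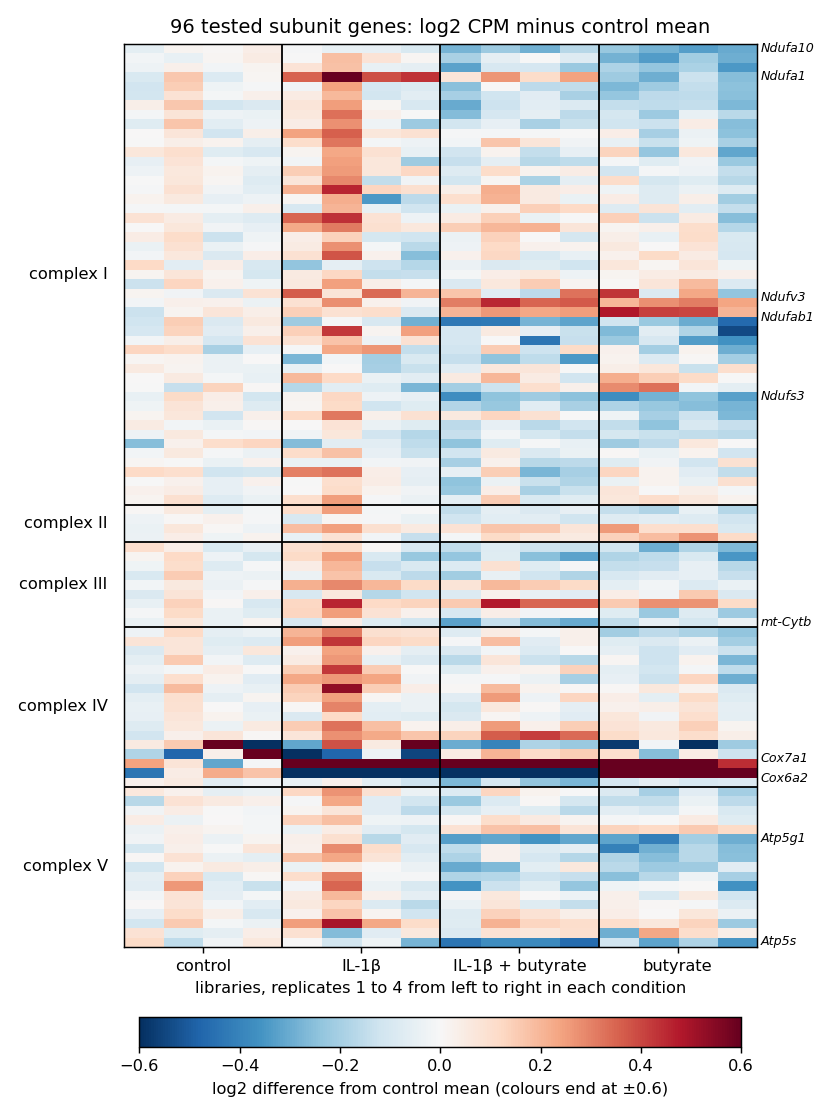
Log2 CPM minus the control mean for the 96 tested members (rows, grouped by complex) in the 16 libraries (columns, grouped by condition), with colors that end at −0.6 and 0.6. Cox6a2 runs past both ends of the color scale, most other rows stay pale, and replicate 2 of IL-1β is the reddest column.

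Mitochondrially encoded members passed the test in neither comparison of a single agent with control and were lower with both agents. With the block, mt-Nd2 was raised by IL-1β (0.16, adjusted p = 0.0061). The 13 genes, nearly all of whose counts came from the 7 measured, took 2.11% ± 0.0567 (SD, n = 4) of all counts in control. Their share was 2.192% ± 0.0587 with IL-1β, 2.02% ± 0.0684 with butyrate and 1.98% ± 0.1003 with both agents, the last 2 being close. The 7 measured genes had medians of 0.02 with IL-1β and −0.02 with butyrate on the log2 scale, signs that turned with upper-quartile scaling and, for IL-1β, without its replicate 2 and, for butyrate, without control replicate 1 or 2. mt-Nd1 gave 0.08 and 0.06 and mt-Nd5 −0.03 and −0.03, none of which passed the test. With both agents all 7 lay below IL-1β (median −0.17) and below control (median −0.13), and those medians stayed negative under every scaling and with any library left out. Of the 7, mt-Cytb passed the test in the former comparison and mt-Cytb and mt-Co1 in the latter.

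Cytochrome b, encoded by mt-Cytb, is the subunit of complex III at which ubiquinol is oxidized. It was at 4174, 4486, 4168 and 4339 CPM in control, at 4019, 4411, 4082 and 3971 CPM with IL-1β and at 3430, 3902, 3587 and 3475 CPM with both agents. Libraries with both agents were below all others of these conditions, replicate 2 again being the highest. The difference was −0.20 against IL-1β (SE 0.05, adjusted p = 0.00452) and −0.25 against control (SE 0.05, adjusted p = 0.000204). mt-Co1, the catalytic subunit of complex IV, was at 6725, 6864, 6327 and 6509 CPM in control and 5481, 6163, 5612 and 5468 CPM with both agents (−0.22, SE 0.05, adjusted p = 0.000845). With the block, mt-Co1, mt-Nd2, mt-Nd4 and mt-Nd6 were also lowered in the comparison with IL-1β and mt-Nd6 in the comparison with control.

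Genes that build, transcribe or regulate the complexes were counted from lists. Assembly factors changed rarely: among 20 tested for complex IV, 0 changed with IL-1β in edgeR (6 at an unadjusted p under 0.05), 1 was lowered by butyrate (Cox16, −0.41) and 2 were lowered by butyrate with IL-1β (Cox16, −0.45, and Coa6, −0.43), and Cmc1 was raised by 0.31 in 1 comparison, both agents against control. Of the 4 assembly factors of complex II, Sdhaf3 rose with butyrate by 0.33, and of the 6 of complex III, Bcs1l rose by 0.26 without and 0.27 with IL-1β. Of the 4 of complex V, Tmem242 fell by 0.33 without and 0.30 with IL-1β. Of 9 further complex I factors, 1 (Tmem186) was lower, by 0.25, in the comparison of both agents with control, as was Cycs, 1 of the 2 cytochromes c, also by 0.25.

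Of 19 tested genes for transcription and upkeep of mitochondrial DNA, IL-1β raised Lrpprc, which stabilizes mitochondrial mRNA, by 0.31 (adjusted p = 1.2e-05) and the elongation factor Tefm by 0.32. Lrpprc fell with butyrate by 0.25 (adjusted p = 0.00023) and when butyrate was added to IL-1β by 0.30. Top1mt, the mitochondrial topoisomerase, rose by 0.72 with butyrate, by 1.08 when butyrate was added to IL-1β and by 1.36 with both agents against control. Of 9 regulators, Esrra rose in each comparison (0.28 with IL-1β, 0.36 with butyrate, 0.32 with butyrate in IL-1β and 0.60 with both against control). The coactivator Ppargc1a fell by 0.65 with IL-1β and rose by 0.64 when butyrate was added to it, and Gabpb2, a partner of GABPA, fell by 0.23 and 0.25 in the butyrate comparisons. Of 77 tested mitochondrial ribosomal proteins, 1 rose and 14 fell with butyrate (median −0.10), 2 rose and 10 fell with butyrate in IL-1β (median −0.06), and 3 rose and 1 fell with IL-1β. Of 8 tested hypoxia-inducible genes, 2 rose with IL-1β, with Egln3 at 1.95, and 1 rose and 2 fell with butyrate. The background shares given above for each comparison hold for these lists as well.

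Promoter windows could be matched for 74 of the 106 members. The letters CCGGAAG, on either strand, were in 18 of them (24.3%), beside 9.93% of the windows of 27025 genes. The palindrome bound by NRF1 was in 7 (9.46%, beside 1.07%), AAGATGG, part of the YY1 motif, in 11 (14.9%, beside 7.28%) and TCAAGGTCA, bound by estrogen-related receptors, in 2 (2.7%, beside 0.466%). TATAAA was in 7 (9.46%, beside 15.7%). None of the searched motifs contains another. A match says only that the letters occur in the window.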

How the data were processed

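Counts per gene from 16 RNA-seq libraries of mouse islets were used as deposited by the authors: raw counts per Ensembl gene, whole numbers in every cell, with 0 rows that name no gene. The submitters' processing notes name bcl2fastq 2.19.1, FastQC 0.11.7, MultiQC 1.7, STAR 2.5.3a and DESeq2, and the builds mm10 and GRCm38.p5. The strand setting of the counting is not given in the sources used here. Total counts per library were 18635943 to 25955943 (median 22184715), and this depth sets the counting error, a count of 3 being at most 0.157 CPM.

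Groups followed the labels, with 4 libraries per condition. All tests were fitted over all genes that pass filterByExpr (18587), with TMM scaling and edgeR 4.0.16 quasi-likelihood F tests (robust) on 1 mean per condition over all 16 libraries, in R 4.3.3. Adjusted p-values are Benjamini-Hochberg over all tested genes, and called means under 0.01, the threshold of the study. Alternatives were an adjusted p under 0.05, DESeq2 1.42.0 and its size factors, upper-quartile scaling, library size only, TMM without the mitochondrial genome, no filter on low counts, the conditions compared fitted alone, the replicate number as a block, and each of the 16 libraries left out. The scripts were tested on simulated data before use.

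Same-numbered samples of the 4 comparisons of condition deviated from their group means together (16 pairs, r from 0.113 to 0.487, above the limit of 0.1). The numbers were therefore taken to pair the samples in those comparisons. Counts of calls with the block are given for each comparison, and not every gene that only the block called is named. Over all 24 pairs, which the difference of the butyrate effects needs, the lowest r was 0.0448. No pair of replicates agreed within sampling noise (chi-square per gene 1.72 to 13.5).

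Members were named as follows: the 13 mitochondrial genes, every called member, the highest and lowest per exon length in each complex, and tissue-specific isoforms with their partners. Lists of assembly factors, mitochondrial DNA genes, regulators, hypoxia genes, mitochondrial ribosomal proteins and cell type markers were counted. The members and lists were chosen with earlier results of these data known, and no test was run on a list. Genes of the lists were named only where called. In the block results Cox6b1, Cox6c, Cox7c, Ndufs1 and Ndufv1, like the library examples, were picked after their values were seen.

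Exon lengths, overlaps and 50-base stretches shared between transcripts came from GENCODE release 21 (52489 of 52636 gene IDs matched), and promoters from RefSeq, GRCm38.p6 (250 bases before to 50 after each start), searched with Python 3.11.15 and aligned with Biopython 1.88. Of the members, 27 shared at least 10% of their 50-base stretches with another gene (22 of them tested). No sequence was printed where no table held it.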

Additional observations from a re-analysis of the deposited data

Results flagged for a closer look

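Among 176 groups of 4 libraries (44 named members in 4 conditions) and the shares of counts, 10 held a library far from the other 3 by Dixon's criterion at 95%, which chance alone gives in about 1 of 20 groups. In each of the 10 it was replicate 2, and it was the highest of its group. With IL-1β, Cox6a1 was at 131.8 CPM in replicate 2 and at 102.9 to 107.5 in the others, Cox8a at 117.2 beside 101.6 to 103.1, Ndufa1 at 155.1 beside 110.6 to 117.0, and Uqcrh at 69.72 beside 55.04 to 55.68. With IL-1β plus butyrate, Cox6b1 was at 67.65 CPM beside 59.56 to 60.09, Cox7a2 at 58.23 beside 49.40 to 50.71, Ndufa13 at 62.13 beside 54.82 to 55.40, and mt-Nd1 at 2760 beside 2326 to 2385. In control, Cox4i1 was at 125.1 CPM beside 111.2 to 113.0. The share of counts on the 13 protein-coding mitochondrial genes with IL-1β plus butyrate was 2.131% in replicate 2 and 1.919% to 1.954% in the others. These members share the libraries, so the 10 are not independent of each other.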

How the results depend on the processing

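Of 46 calls, 25 (16 members) held under all 24 alternatives, and no value reversed where its main value was called. With an adjusted p under 0.05, IL-1β raised 13 members (2755 of the 18587 tested genes in all) and butyrate lowered 18 (3059 in all). Butyrate with IL-1β raised 4 (2457 in all) and lowered 26 (3138 in all), and both agents against control lowered 16 (3672 in all). With upper-quartile scaling IL-1β raised 3, butyrate lowered 5 and butyrate with IL-1β lowered 2. On library sizes alone IL-1β raised 22, butyrate lowered 17 (2488 genes in all) and both agents against control raised 10. With no filter on low counts IL-1β raised 12 (2360 genes in all), butyrate lowered 16 (2427) and butyrate with IL-1β lowered 21 (2328). With the replicate number as a block IL-1β raised 16 and lowered 2 (13.9% and 10.5% of all genes), and butyrate lowered 16 (14.9%). In the same fit butyrate with IL-1β lowered 26 (15.4%) and both agents against control lowered 13 (18.3%). With the compared conditions fitted alone IL-1β raised 2 (1890 genes in all) and butyrate with IL-1β lowered 3 (1674). With 1 library left out at a time, IL-1β raised 2 to 8 and lowered 1, butyrate raised 3 to 4 and lowered 6 to 14, butyrate with IL-1β raised 1 to 3 and lowered 4 to 21, both agents against control raised 4 to 5 and lowered 7 to 11, and the difference of the butyrate effects held 0 in either direction. No all-gene counts are set beside these ranges, so they show no trait particular to the members. The causes of the shifts between settings were not tested. Over all genes, upper-quartile scaling moved the split of IL-1β calls from 2087 raised and 1224 lowered to 1914 and 1800, that of butyrate calls from 1585 and 2112 to 2207 and 1566, and that of butyrate with IL-1β from 1563 and 2066 to 2137 and 1566. On library sizes alone the split was 2798 and 708 with IL-1β and 3805 and 1884, from 2937 and 2751, with both agents against control. DESeq2 and its size factors, and TMM without the mitochondrial genome, kept every count of members within 1.5 times. Depth limits the low isoforms (Cox7a1, Cox6b2, Ndufa4l2, at 4 to 44 counts) and those not tested. The 6 mitochondrial genes at 0 or 1 counts gave no comparison.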

Other observations

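The mitochondrial rRNA genes, which the rule for members leaves out, were counted separately. The small rRNA mt-Rnr1 was higher with butyrate by 0.57 on the log2 scale (adjusted p = 4.7e-05 in edgeR) and by 0.50 when butyrate was added to IL-1β (adjusted p = 0.000196), and gave −0.29 with IL-1β (adjusted p = 0.0161). The large rRNA mt-Rnr2 gave 0.31 with butyrate (adjusted p = 0.0534). How much rRNA the library preparation removed was not tested.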
